A study of Homo sapiens with 12 samples.

Results

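Genes for endoplasmic reticulum (ER) chaperones, folding enzymes and the unfolded protein response were followed in 2 liver cancer lines that had been made resistant to lenvatinib. The set was 38 genes listed by name. Of these, 24 were among the 8717 named entries of the Hep3B table and 26 were among the 7533 genes of the Huh7 table. There were 17 in both tables, 7 only in the Hep3B table and 9 only in the Huh7 table, so that 33 had values in at least 1 line. PDIA6, SYVN1, DERL1, DERL3 and SIL1 are the other 5, and their expression was not analysed here.

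RNA-seq was run on total RNA from 12 libraries of Hep3B and Huh7, established lines from human hepatocellular carcinoma. Each line gave 3 libraries of parental cells and 3 of lenvatinib-resistant cells, all grown in DMEM with fetal bovine serum. Lenvatinib, a drug for this cancer, blocks several receptor tyrosine kinases, among them those for VEGF and FGF. The comparison in each line asks how the resistant cells differ from the parental cells. The treatment label names DMSO or lenvatinib for every library alike, so the libraries harvested in drug cannot be told from the others. Whether a resistant line was 1 clone or a pool is not labelled. Nor are the replicates said to be separate cultures, so the p-values reflect only how far these samples spread, and that spread may be technical.

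The unfolded protein response adjusts the folding capacity of the ER to the load of secreted and membrane proteins, a load that is high in liver cells. Its sensors are IRE1 (gene ERN1), PERK (gene EIF2AK3) and ATF6, which are held back by the chaperone BiP (gene HSPA5) until misfolded protein builds up. IRE1 splices the mRNA of the transcription factor XBP1, PERK slows translation and favours that of ATF4, and ATF6 is cut by Golgi proteases to release a transcription factor. XBP1 and ATF6 act on the promoters of ER chaperones, folding enzymes and degradation genes through elements called ERSE, ERSE-II and UPRE.

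These elements were searched for in the members' promoters, since they are the best-known sequence feature that such genes share. The window ran from 250 bases before to 50 after each start in RefSeq, on GRCh38.p14, and both strands were read. PDIA3, DERL1 and DERL3 had no window in the sequence table used, which left 35 members. ERSE, which is CCAAT and CCACG with 9 bases of any kind between them, was in the windows of 8 members (22.9%), against 0.0916% of 27305 genes with a window. They were HSPA5, HSP90B1, CALR, CANX, PDIA6, XBP1, CRELD2 and ERO1B. ERSE-II, which is ATTGG and CCACG with 1 base between them, was in those of SDF2L1, HYOU1 and HERPUD1 (8.57%), against 0.0696% of all genes. The core of UPRE, TGACGTG, was in those of HYOU1, DNAJC10, SEC61A1 and TXNDC5 (11.4%), against 2.4% of all genes, and in HYOU1 it overlaps an ERSE-II. The members were named for their role and some became known through these elements, so the shares describe the set, and a match is not by itself a site in use.

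Windows of 3 major chaperones are shown whole, because these genes carry the classical element and are the chaperones described first below. HSPA5 is at chr9:125241294-125241593 on the minus strand, HSP90B1 at chr12:103930160-103930459 on the plus strand and CALR at chr19:12938359-12938658 on the plus strand, all in GRCh38.p14. Each sequence runs 5′ to 3′ along the direction of transcription and capitals mark ERSE on either strand. HSP90B1 has 2 matches and the others have 1 each.
HSPA5: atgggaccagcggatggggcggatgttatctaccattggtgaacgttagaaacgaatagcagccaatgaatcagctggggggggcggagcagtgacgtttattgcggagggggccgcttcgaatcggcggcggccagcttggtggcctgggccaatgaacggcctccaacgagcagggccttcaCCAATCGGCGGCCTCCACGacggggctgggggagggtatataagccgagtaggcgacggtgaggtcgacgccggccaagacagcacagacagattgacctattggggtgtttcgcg
HSP90B1: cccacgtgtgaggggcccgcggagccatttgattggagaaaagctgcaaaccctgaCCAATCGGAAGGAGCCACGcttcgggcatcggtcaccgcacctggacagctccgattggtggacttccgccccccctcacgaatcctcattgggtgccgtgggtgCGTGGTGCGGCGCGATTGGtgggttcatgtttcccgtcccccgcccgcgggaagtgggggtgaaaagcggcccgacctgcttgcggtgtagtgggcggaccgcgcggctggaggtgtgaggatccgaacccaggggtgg
CALR: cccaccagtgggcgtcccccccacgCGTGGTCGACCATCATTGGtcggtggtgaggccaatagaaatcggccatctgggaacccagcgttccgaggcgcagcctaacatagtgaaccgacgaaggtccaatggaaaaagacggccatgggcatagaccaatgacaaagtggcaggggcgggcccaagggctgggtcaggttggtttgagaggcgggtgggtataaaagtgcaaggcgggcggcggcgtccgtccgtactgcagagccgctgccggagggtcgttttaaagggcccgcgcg

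The other members with an ERSE or ERSE-II and a call in at least 1 line are shown as the element with its flanks, with up to 20 bases on each side. CANX is at chr5:179698758-179698816 (plus strand), SDF2L1 at chr22:21642094-21642144 (plus strand), HYOU1 at chr11:119057254-119057410 (minus strand), HERPUD1 at chr16:56932005-56932055 (plus strand), XBP1 at chr22:28800583-28800641 (minus strand) and ERO1B at chr1:236282163-236282208 (minus strand). Capitals mark ERSE in CANX, XBP1 and ERO1B and ERSE-II in SDF2L1, HYOU1 and HERPUD1. HYOU1 has 2 matches to ERSE-II.
CANX: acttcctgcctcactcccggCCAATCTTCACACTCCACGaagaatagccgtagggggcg
SDF2L1: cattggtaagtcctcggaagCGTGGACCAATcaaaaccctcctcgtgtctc
HYOU1: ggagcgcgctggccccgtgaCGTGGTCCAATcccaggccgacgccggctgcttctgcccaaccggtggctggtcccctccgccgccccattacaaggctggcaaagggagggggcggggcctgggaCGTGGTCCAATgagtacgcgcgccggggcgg
HERPUD1: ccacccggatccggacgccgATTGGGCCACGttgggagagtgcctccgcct
XBP1: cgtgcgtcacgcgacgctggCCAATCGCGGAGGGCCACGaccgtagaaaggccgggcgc
ERO1B: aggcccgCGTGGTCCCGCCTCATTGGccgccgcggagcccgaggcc

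**Figure D1:**
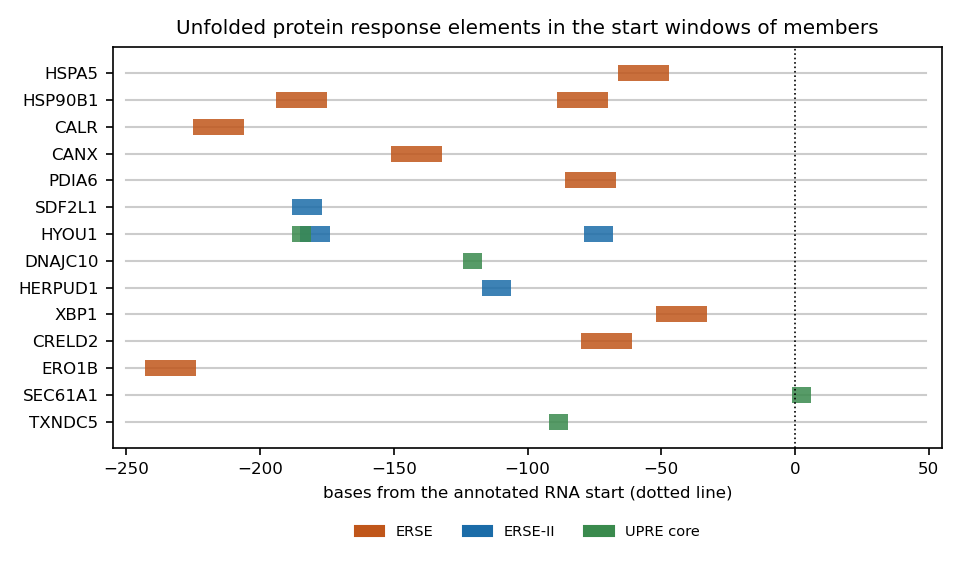
Matches to ERSE, ERSE-II and the UPRE core in the promoter windows of the members that have one, by distance in bases from the RefSeq start (x axis, from 250 before to 50 after). ERSE is in the windows of 8 members, ERSE-II in those of 3 and the UPRE core in those of 4.

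Whole reads were recovered from the deposited values, and levels below are scaled reads, that is, reads times 1 factor per library. Recovered reads over the listed genes ran from 6184929 to 7475184 per Hep3B library and from 11480608 to 14174202 per Huh7 library. Hep3B entries each stand for 1 RefSeq transcript and Huh7 entries for 1 gene, so levels are not compared between the lines. Changes are log2 fold changes of resistant against parental cells on the log2(scaled reads + 1) scale, given with the standard error (SE), and a change was called when the limma adjusted p was under 0.05. Every gene in the Huh7 table already had an adjusted p under 0.05 in the authors' deposited table. A call there therefore carries no weight and the Huh7 changes are read by size and direction. Among markers of the labelled cell type, 9 of 15 hepatocyte genes were listed in Hep3B, where their summed level ran from 408260.4 to 413410.2 in parental and from 198471.7 to 202460.5 in resistant libraries; 8 of the 9 fell and 1 rose. In Huh7 11 of 15 were listed, with sums from 526603.9 to 576186.1 in parental and from 610733.4 to 635839.1 in resistant libraries. Of the 11, 6 were higher and 5 lower. AFP made up much of these sums, with a mean of 239516.5 in parental and 318702.4 in resistant Huh7 libraries, so the sums do not show a general rise. Fibroblast markers, with 3 of 5 listed in Hep3B and 2 of 5 in Huh7, summed to 583 to 675 in parental and 408 to 483 in resistant Hep3B, where 2 fell and 1 rose, and to 2633.1 to 2765.8 and 806 to 826 in Huh7, where both were lower. Leukocyte markers (1 of 4 listed in each line) and endothelial markers (1 and 2 of 4) summed to at most 59.7 and 250. The leukocyte gene was called higher in each line, with 13.7 to 23.4 in parental and 27 to 59.7 in resistant Huh7. In Hep3B it reached at most 18.3. Endothelial sums went from 121 to 153 in parental to 235 to 250 in resistant Huh7, where PECAM1 was higher and VWF lower. In Hep3B the endothelial gene did not pass. The part of these marker shifts in the results was not tested.

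In resistant Hep3B cells more of the ER folding genes fell than rose. Of the 24 members, 11 fell, 3 rose and 10 did not pass the test, whereas 21.9% of all 8717 entries fell, 27.6% rose and 49.5% were called either way. The median member change was −0.15 on the log2 scale, beside 0.07 for all entries, and single members ran from −0.88 for PPIB to 0.39 for EDEM1. All members together took 1.63% to 1.66% of the recovered reads in parental libraries and 1.45% in each resistant library. Parental and resistant levels did not overlap for 17 members, and for 56.3% of all entries. In bulk RNA, a smaller share of cells with a transcript and less of it per cell cannot be told apart. Another scaling matters for the calls, because centring each library on its median moves the median of all entries from 0.07 to −0.09 and the share of calls that are higher from 55.7% to 39.2%. Under it 16 members were lower and 1 was higher. Under the deposited scaling 19 of 24 lay below the median of all entries. Another scaling moves members and all entries alike, so it could not change that count.

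**Figure D2:**
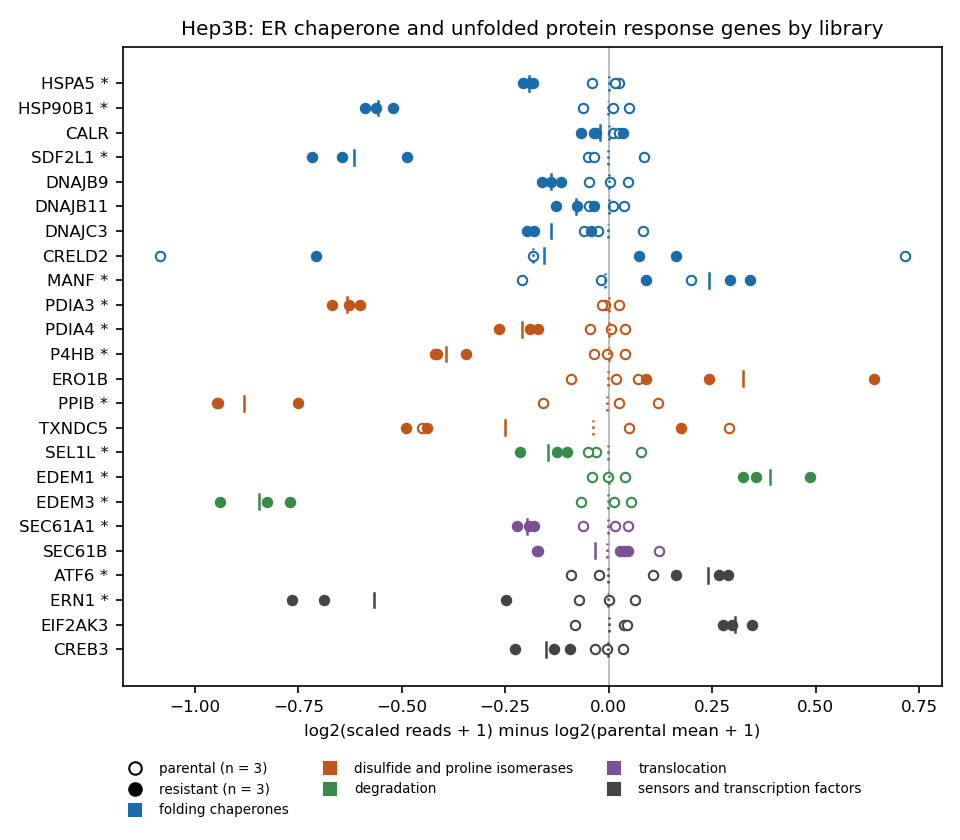
Level of each member in the 6 Hep3B libraries, as log2(scaled reads + 1) relative to the parental mean, with 1 point per library (open for parental, filled for resistant), short vertical lines at the group means of the log values and members coloured by role and marked with an asterisk where called. The resistant points of PDIA3, HSP90B1, EDEM3 and PPIB all lie below the parental ones, and those of CALR overlap them.

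Among the Hep3B chaperones, the abundant HSP90B1 fell, and CALR had a change within the replicate spread under the deposited scaling. HSP90B1 encodes GRP94, the ER paralog of cytosolic HSP90. Its level was 13999, 14380.5 and 13312.5 in the parental libraries and 9241, 9690.2 and 9417 in the resistant ones. Every resistant value was thus below every parental value, with a log2 fold change of −0.56 (SE 0.04, limma adjusted p = 6.51e-10). HSPA5 encodes BiP, the ER HSP70 that binds nascent chains and restrains the stress sensors. It read 12309.5, 12237 and 11760.3 in parental and 10605, 10662.5 and 10481.5 in resistant libraries. These groups also did not overlap, and the fall of 0.19 on the log2 scale (SE 0.04, limma adjusted p = 0.000368) was smaller than that of HSP90B1. CALR encodes calreticulin, the soluble lectin chaperone that folds glycoproteins and stores calcium. It read 18617, 18029 and 18811 in parental and 18083, 17655 and 18933 in resistant libraries, so the groups overlapped, and the change was −0.02 (SE 0.04, limma adjusted p = 0.691). With libraries centred on their median CALR fell by 0.18 (limma adjusted p = 0.0011). All 3 genes have an ERSE in the windows shown above.

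The smaller chaperones and co-chaperones of Hep3B gave a fall, a weak rise and several changes within the spread. SDF2L1 is a BiP-associated factor that keeps DNAJB-type co-chaperones in their working cycle. Its parental values were 642, 649 and 705 and its resistant values 425, 404 and 474. With no overlap it fell by 0.62 on the log2 scale (SE 0.08, limma adjusted p = 2.86e-06). MANF is a small secreted ER protein that stabilises BiP complexes. It read 583, 511 and 679 in parental and 749, 629 and 724 in resistant libraries, which overlap. The fitted rise was 0.25 (SE 0.10, limma adjusted p = 0.0382), but the call depended on single libraries. Without parental library 1 the adjusted p was 0.0964, without parental library 2 it was 0.18, without resistant library 1 it was 0.163 and without resistant library 3 it was 0.122. It was also 0.427 after median centring, 0.0935 under TMM, 0.0915 in edgeR, 0.154 in DESeq2 and 0.281 in the authors' deposited table.

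The J-domain co-chaperones, which hand clients to BiP and trigger its ATPase, had resistant means below the parental ones and did not pass the main test, though some passed under other settings. DNAJB9, also called ERdj4, had a mean of 338 ± 11.1 (SD, n = 3) in parental and 307 ± 4.65 in resistant libraries, a change of −0.14 (SE 0.09, limma adjusted p = 0.226). DNAJB11, or ERdj3, changed by −0.08 (SE 0.05, limma adjusted p = 0.184) and DNAJC3, or p58IPK, which also inhibits PERK, by −0.14 (SE 0.06, limma adjusted p = 0.0631). Same-numbered Hep3B libraries deviated together, though no label states a pairing. With the replicate number as a block the limma adjusted p became 0.04996 for DNAJB11 and 0.00583 for DNAJC3. That fit gave PDIA3 a limma adjusted p of 2.28e-100, beside 8.54e-11 in the main test. A pass under the block therefore carries little weight. Without resistant library 2 DNAJC3 also passed, at −0.19 with an adjusted p of 0.0186. Median centring gave adjusted p-values from limma of 0.0104 for DNAJB9, 0.000413 for DNAJB11 and 0.000593 for DNAJC3. Both DNAJB11 and DNAJC3 also passed under TMM, edgeR and DESeq2, and DNAJC3 passed in the authors' deposited table (0.0251). The CRELD2 entry is a non-coding transcript with 34 reads over the 6 libraries, and it says nothing on the coding mRNA of this ER-resident protein.

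Among the disulfide and proline isomerases 4 of 6 fell in Hep3B, PPIB by more than any other member. PPIB is cyclophilin B, a proline isomerase that works on collagen and other secreted proteins. It read 1357, 1647 and 1543 in parental and 787, 900 and 786 in resistant libraries, with no overlap and a change of −0.88 (SE 0.08, limma adjusted p = 6.64e-09). PDIA3 encodes ERp57, the disulfide isomerase that works with calnexin and calreticulin on glycoproteins. It read 10233, 10479 and 10185 in parental and 6794, 6667.5 and 6478 in resistant libraries. The libraries of each group were close to each other and far from the other group, with a change of −0.63 (SE 0.04, limma adjusted p = 8.54e-11). P4HB, the founding protein disulfide isomerase and a subunit of prolyl 4-hydroxylase, read 22444, 23665 and 22944 in parental and 17252, 18129 and 17194 in resistant libraries. It fell by 0.39 (SE 0.04, limma adjusted p = 3.19e-08), and the groups did not overlap. PDIA4, or ERp72, fell by 0.21 (SE 0.05, limma adjusted p = 0.000707), from a mean of 6180.3 ± 186 to 5348.7 ± 180 (SD, n = 3).

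Of the remaining oxidative folding genes in Hep3B, both were low and variable. ERO1B, an oxidase that recharges protein disulfide isomerase, was at 41.2 ± 2.36 (SD, n = 3) in parental and 52.5 ± 10.9 in resistant libraries, with a change of 0.33 (SE 0.22, limma adjusted p = 0.238). TXNDC5, a thioredoxin-domain isomerase, was at 115 ± 29.1 and 98.8 ± 27.3, with a change of −0.21 (SE 0.21, limma adjusted p = 0.423). The 6 members of this role together took 0.586% to 0.607% of reads in parental and 0.464% to 0.48% in resistant Hep3B libraries. The folding chaperones took 0.741% to 0.758% and 0.684% to 0.705%.

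Genes of ER-associated degradation moved in opposite directions in Hep3B. EDEM1 and EDEM3 are mannosidase-like proteins that mark misfolded glycoproteins for removal. EDEM3 read 3012.5, 3099 and 2851 in parental and 1686, 1752 and 1558 in resistant libraries. It fell by 0.84 (SE 0.06, limma adjusted p = 1.34e-10), with no overlap. EDEM1 read 1126, 1095.5 and 1158 in parental and 1579.5, 1442 and 1409.8 in resistant libraries. Its groups did not overlap either, and it rose by 0.39 (SE 0.06, limma adjusted p = 2.31e-05). SEL1L, the adaptor of the HRD1 ubiquitin ligase, fell by 0.15 (SE 0.05, limma adjusted p = 0.0256) from 3602.4 ± 176 to 3256.3 ± 134 (SD, n = 3). That call was lost without parental library 2, at −0.11 with an adjusted p of 0.118, and without resistant library 3, at −0.11 with an adjusted p of 0.127.

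The translocation channel gave 1 fall. SEC61A1, the pore-forming subunit through which secretory proteins enter the ER, read 10273.9, 10493 and 9734.5 in parental and 8722, 8895 and 8965 in resistant Hep3B libraries. It fell by 0.20 (SE 0.04, limma adjusted p = 0.000553) with no overlap. SEC61B, a small subunit of the same channel, read 892, 772 and 946 and then 886, 773 and 899. The groups overlapped almost fully, with a change of −0.03 (SE 0.08, limma adjusted p = 0.808).

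Among the sensors and factors in Hep3B, IRE1 and ATF6 moved apart. ERN1 read 334, 349 and 318 in parental and 196, 281 and 207 in resistant libraries. All resistant values were lower and resistant library 2 was nearest to the parental group, with a change of −0.56 (SE 0.12, limma adjusted p = 0.000674). ATF6 read 1199, 1311.5 and 1143 in parental and 1487.5, 1466 and 1364 in resistant libraries. The groups did not overlap and ATF6 rose by 0.24 (SE 0.07, limma adjusted p = 0.00378), a call that ended under median centring, at 0.08 with an adjusted p of 0.332. EIF2AK3, the PERK gene, read 62.6, 68.0 and 68.4 and then 81.7, 84.5 and 80.5, again without overlap. At this depth of 446 reads in all, its change of 0.31 (SE 0.17, limma adjusted p = 0.144) did not pass, and it passed in limma without trend (adjusted p = 0.0172). CREB3, a transcription factor released from the ER membrane by the same Golgi proteases as ATF6, read 793, 772 and 756 and then 661, 725 and 706. Its change of −0.15 (SE 0.07, limma adjusted p = 0.0821) passed with the replicate block (adjusted p = 0.0367), under the limit given above for that fit. It also passed under median centring (−0.31, limma adjusted p = 0.00116), TMM, edgeR, DESeq2 and in the authors' deposited table (0.0443).

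Some entries cover a gene only in part or share sequence with copies elsewhere. RefSeq lists several transcripts for DNAJB11, PDIA4, CRELD2, ATF6, EDEM3, SEC61A1, EIF2AK3, SEL1L and TXNDC5, of which the Hep3B table holds 1 each. HSPA5, HSP90B1, PDIA3, XBP1 and SSR1 have pseudogene copies to which the authors' counting could have divided their reads, so their levels are uncertain to that extent.

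In resistant Huh7 cells nearly all listed members were lower. Of the 26, 23 were lower and 3 higher, and all passed the test, as did 100% of the 7531 genes tested (52.0% lower, 48.0% higher), because the table is a selection. The median member change was −0.31 beside −0.19 for all genes, and 18 of the 26 lay below that median. Another scaling moves members and all genes alike, so it could not change that count. Groups did not overlap for 26 of 26 members and for 98.6% of all genes. The adjusted p-values and the lack of overlap given below for Huh7 thus describe the values and add no support. Members together took 1.24% to 1.29% of the recovered reads in parental and 1.12% to 1.15% in resistant libraries. The changes ran from −0.93 for ERO1B to 0.93 for CREB3L3. HSPA5, PDIA3, DNAJB9, SEC61B, CRELD2 and the sensor genes ATF6 and EIF2AK3 were listed in Hep3B only, so they have no Huh7 value here.

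**Figure D3:**
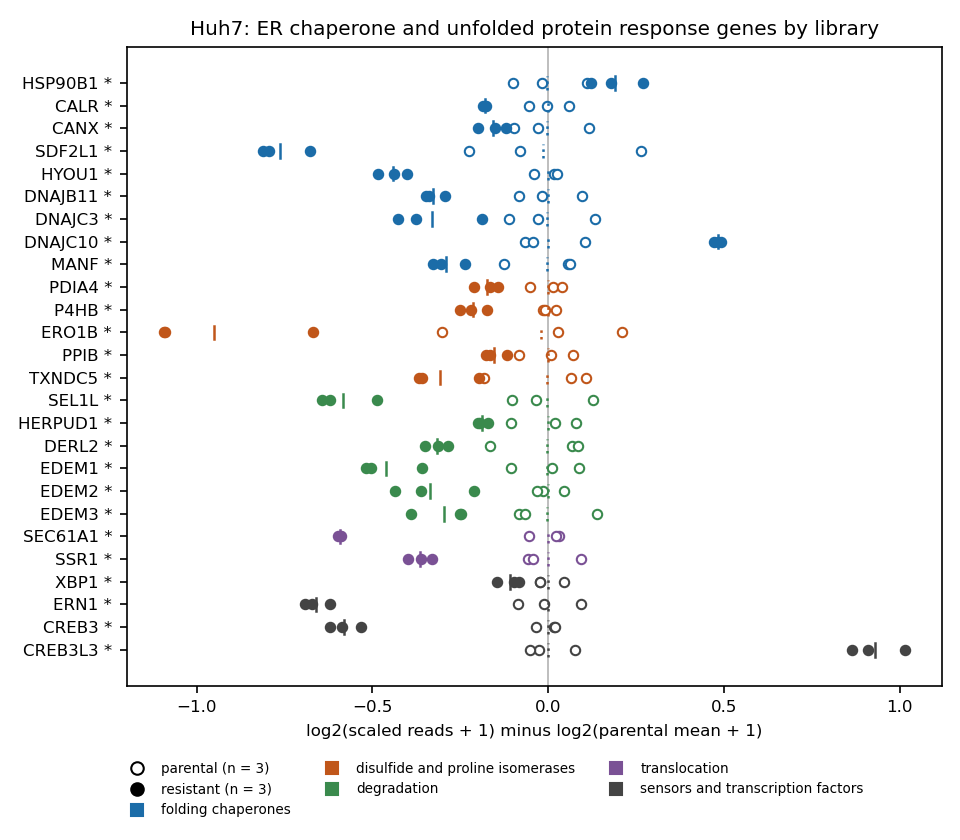
Level of each member in the 6 Huh7 libraries, as log2(scaled reads + 1) relative to the parental mean, with 1 point per library (open for parental, filled for resistant), short vertical lines at the group means of the log values and members coloured by role. HSP90B1, DNAJC10 and CREB3L3 lie above the parental libraries and the other 23 members below.

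The translocation channel and several degradation genes were among the larger falls in Huh7. SEC61A1 read 16941, 16823 and 15947 in parental and 10984, 10938 and 11021 in resistant libraries. The resistant libraries were nearly equal and far below the parental ones, with a change of −0.59 (SE 0.04, limma adjusted p = 4.23e-10). SSR1, a subunit of the translocon-associated protein complex, changed by −0.36 (SE 0.05), from 3724.9 ± 219 to 2895.4 ± 69.2 (SD, n = 3). SEL1L read 2381, 2496 and 2789 in parental and 1635, 1662 and 1824 in resistant libraries. It changed by −0.58 (SE 0.06, limma adjusted p = 1.36e-07) without overlap. EDEM1 read 1935, 2097 and 2210.5 in parental and 1622, 1467 and 1451 in resistant libraries, all lower, with a change of −0.46 (SE 0.06). The degradation genes EDEM2, EDEM3, DERL2 and HERPUD1 were lower too, with changes of −0.34, −0.29, −0.31 and −0.19. DERL2 is a derlin of the retrotranslocation complex and HERPUD1 a scaffold of the HRD1 ligase. The HERPUD1 call was lost without parental library 2, at −0.15 with a limma adjusted p of 0.0747. The 6 degradation members took 0.0683% to 0.0754% of reads in parental and 0.0543% to 0.056% in resistant libraries.

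Among the Huh7 chaperones, SDF2L1 and HYOU1 were lower and HSP90B1 and DNAJC10 higher. SDF2L1 read 1198.8, 943 and 854 in parental and 575, 568 and 623 in resistant libraries. The parental libraries spread widely but stayed above the resistant ones, with a change of −0.75 (SE 0.10, limma adjusted p = 9.43e-07). HYOU1, or GRP170, an HSP70-like nucleotide exchange factor of BiP, read 6994, 7043 and 6722 in parental and 4946, 5105 and 5236 in resistant libraries. It changed by −0.44 (SE 0.05, limma adjusted p = 8.16e-08), with no overlap. Both genes have an ERSE-II in the sequences shown above. HSP90B1 read 19337, 20469 and 22396.5 in parental and 22562, 23463 and 24997 in resistant libraries. The highest parental library came close to the lowest resistant one, and the change was 0.19 (SE 0.05, limma adjusted p = 0.00209). DNAJC10, or ERdj5, a reductase that prepares misfolded proteins for export from the ER, read 2228, 2263 and 2511 in parental and 3238, 3282 and 3262 in resistant libraries. It was higher by 0.48 (SE 0.06, limma adjusted p = 2.13e-07) without overlap.

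The lectin chaperones and remaining co-chaperones of Huh7 shifted less than SDF2L1, HYOU1 and DNAJC10. CALR was at 22089 ± 877 (SD, n = 3) in parental and 19489.7 ± 72.1 in resistant libraries, a change of −0.18 (SE 0.04). CANX, the membrane-bound partner of calreticulin, was at 20157 ± 1543.7 and 18073 ± 501, a change of −0.16 (SE 0.05). DNAJB11 changed by −0.33 (SE 0.06), DNAJC3 by −0.33 (SE 0.07) and MANF by −0.29 (SE 0.07). All 5 were lower in each resistant library than in any parental library.

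Each Huh7 isomerase and oxidase listed was lower. ERO1B, though low, read 128, 183 and 161 in parental and 73.7, 73.5 and 98.9 in resistant libraries. The groups did not overlap, with a change of −0.93 (SE 0.17, limma adjusted p = 4.34e-05) on 735 reads. P4HB changed by −0.21 (SE 0.04), PDIA4 by −0.17 (SE 0.05), TXNDC5 by −0.30 (SE 0.09) and PPIB by −0.15 (SE 0.06). PPIB was thus at 2358.6 ± 127 (SD, n = 3) in parental and 2120.7 ± 47.5 in resistant libraries. Its call was lost without resistant library 2, at −0.14 with a limma adjusted p of 0.0604.

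Transcription factors of the response split in Huh7. CREB3L3, or CREBH, a factor of the liver and intestine that is cut at the Golgi like ATF6, read 563, 604 and 553 in parental and 1043, 1078 and 1159 in resistant libraries. It was higher by 0.93 (SE 0.07, limma adjusted p = 7.65e-10), and the groups were far apart. CREB3 of the same family read 1181, 1184 and 1140.2 in parental and 759, 807 and 778 in resistant libraries. It changed by −0.58 (SE 0.06, limma adjusted p = 1.17e-07) without overlap. ERN1 read 459, 494 and 436 and then 290.0, 286 and 301, a change of −0.66 (SE 0.09, limma adjusted p = 1.61e-06). Its target XBP1 read 9374, 9365 and 9822 and then 8603, 8899 and 8979, a change of −0.11 (SE 0.05) in total XBP1 mRNA, spliced and unspliced together. The XBP1 groups did not overlap, but the call was lost without resistant library 1, at −0.09 with a limma adjusted p of 0.118, and without resistant library 2, at −0.11 with 0.0668. Other alternatives that ended it are given in the closing section.

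The 17 members listed in both lines were compared by the difference of their changes, Huh7 minus Hep3B. The difference passed for 12 of them, with Huh7 above Hep3B in 4 and below in 8, beside 67.1% of 3885 shared genes (30.4% above, 36.7% below). The median difference was −0.16 for the members and −0.10 for all shared genes. The changes were negative in both lines for 13 members. A fall was called in both lines for 8 members, namely PDIA4, P4HB, SDF2L1, SEL1L, EDEM3, ERN1, PPIB and SEC61A1, and for 13.6% of shared genes. HSP90B1, EDEM1 and MANF were called in opposite directions, as were 29.1% of shared genes. The Hep3B rise of MANF passed in only 7 of 17 alternative settings. All these shares use the Huh7 selection, which holds only genes that had passed the authors' test. The Huh7 side of each call in both lines was therefore fixed in advance, apart from its direction.

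**Figure D4:**
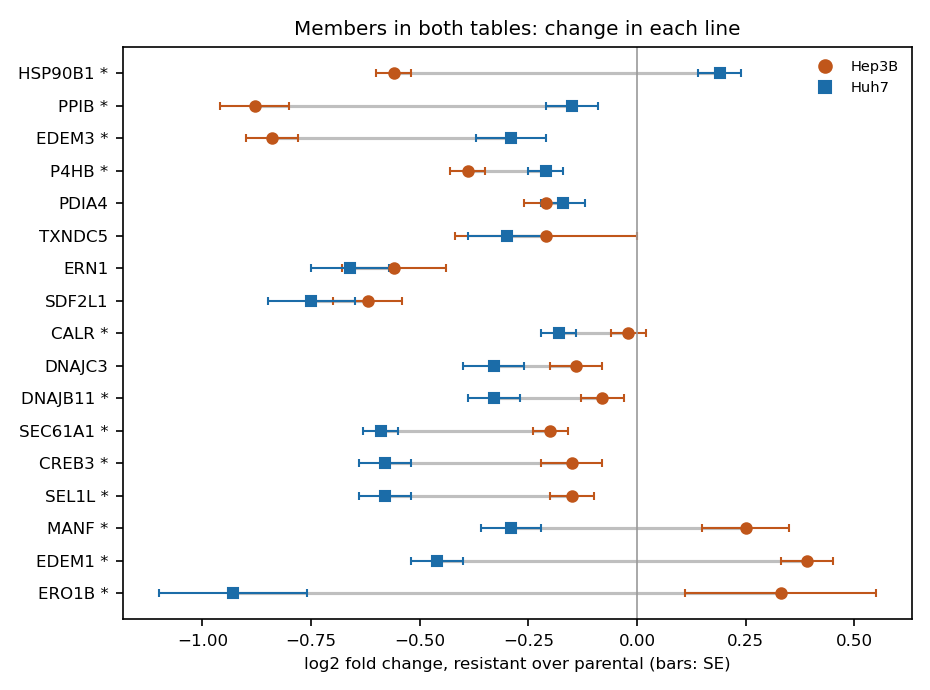
Log2 fold change of resistant against parental cells (x axis) for the 17 members listed in both lines (y axis), with circles for Hep3B, squares for Huh7, bars for 1 standard error of each and an asterisk where the difference between the lines passed. HSP90B1 lies at −0.56 in Hep3B and 0.19 in Huh7, EDEM1 at 0.39 and −0.46, and both changes are negative for 13 members.

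HSP90B1, PPIB, EDEM3 and P4HB had the more negative change in Hep3B. HSP90B1 differed by 0.75 (95% interval 0.61 to 0.89, limma-based adjusted p = 3.28e-12), being lower in Hep3B and higher in Huh7. PPIB differed by 0.72 (0.53 to 0.91, adjusted p from the limma fits = 2.39e-08), EDEM3 by 0.55 (0.36 to 0.74) and P4HB by 0.18 (0.06 to 0.29). The last 3 were lower in both lines, by unequal amounts.

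ERO1B, EDEM1, MANF, SEL1L, CREB3, SEC61A1, DNAJB11 and CALR had the more negative change in Huh7. ERO1B differed by −1.26 (95% interval −1.82 to −0.70) and EDEM1 by −0.85 (−1.03 to −0.67). EDEM1 and EDEM3, with related roles, thus differed between the lines in opposite directions. MANF differed by −0.54 (−0.78 to −0.30), SEL1L by −0.43 (−0.60 to −0.27), CREB3 by −0.43 (−0.62 to −0.24) and SEC61A1 by −0.40 (−0.52 to −0.27). DNAJB11 differed by −0.25 (−0.40 to −0.09) and CALR by −0.16 (−0.28 to −0.04). With libraries centred on their median, 3 of these no longer passed: CREB3 differed by −0.21 (adjusted p from the limma fits = 0.0513), DNAJB11 by −0.03 and CALR by 0.06. The CALR difference was also lost without Hep3B resistant library 3, at −0.13 with an adjusted p from the limma fits of 0.0574.

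For 5 members the difference did not pass, with 95% intervals that hold for the deposited scaling. SDF2L1 fell by a like amount in each line, and its difference was −0.13 (95% interval −0.39 to 0.13). That of ERN1 was −0.10 (−0.40 to 0.21), that of PDIA4 0.04 (−0.09 to 0.17) and that of TXNDC5 −0.09 (−0.56 to 0.38). Under median centring the PDIA4 difference passed, at 0.26 with an adjusted p from the limma fits of 0.00135. DNAJC3 differed by −0.19 (−0.38 to 0.01, adjusted p from the limma fits = 0.0823). It passed with the replicate block (0.0236), under the limit given above for that fit. It also passed without Hep3B parental library 2 (0.0379), without Huh7 parental library 1 (0.0173) and without Huh7 resistant library 3 (0.0216).

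Members with and without an exact match to ERSE or ERSE-II had medians close to each other in Hep3B. There, 6 measured members with an ERSE or ERSE-II gave 3 falls and 3 that did not pass, with a median of −0.11, and 17 with a window but neither element gave 7 falls, 3 rises and 7 that did not pass, with a median of −0.14. In Huh7 the 8 with ERSE or ERSE-II had a median of −0.18 and the 18 with neither a median of −0.32. SEC61A1 and TXNDC5 in each line, and DNAJC10 in Huh7, count here as having neither but carry the UPRE core.

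Other ER chaperones outside the set also gave more falls than rises. Among 32 other ER chaperones and folding enzymes measured in Hep3B, 15 fell, 4 rose and 13 did not pass, with a median of −0.26 beside 0.07 for all entries. Of all entries there 21.9% fell and 27.6% rose. FKBP10 and PLOD3, which work on collagen folding and lysine hydroxylation, fell by 0.85 and 0.58, while RCN3, a calcium-binding reticulocalbin, rose by 1.0 and CNPY3, a GRP94 cofactor, by 0.41. In Huh7, 24 of 35 were lower and 11 higher, with a median of −0.33 beside −0.19, and 52.0% of all genes were lower. EMC10, a subunit of the ER membrane protein complex, changed by −1.62 and PRDX4, an ER peroxiredoxin, by −0.80. RCN1 was called in opposite directions, at −0.62 in Hep3B and 1.22 in Huh7.

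The calls among the output genes of the PERK arm were rises in Hep3B. Of 8 measured genes 3 rose and 5 did not pass in limma, with a median of 0.13 beside 0.07. Of all Hep3B entries 27.6% rose. Under median centring and under TMM 1 of the 8 rose, PPP1R15A. The list median was then −0.03 and 0.07, beside −0.09 and 0.02 for all entries. PPP1R15A, or GADD34, which restarts translation by removing phosphate from eIF2α, rose from 936 ± 49.6 to 3118.9 ± 67.3 (SD, n = 3), a change of 1.74 (SE 0.06, limma adjusted p = 1.75e-15). In Huh7 the same gene was lower, from 3311.8 ± 191 to 1711.2 ± 133, a change of −0.95 (SE 0.06, limma adjusted p = 9.12e-11). There 7 of 10 genes were lower and 3 higher, with a median of −0.40 beside −0.19, and 52.0% of all genes were lower. VEGFA was at −0.81 and CEBPB at −0.63. The higher ones were NUPR1 at 2.05 (SE 0.34), CHAC1, a glutathione-degrading enzyme, at 0.90 (SE 0.19), and SESN2 at 0.24. NUPR1 was low, from 11.3 ± 5.27 in parental to 48.2 ± 15.5 in resistant libraries (SD, n = 3), on 175 reads. CHAC1 had 338 reads.

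Other sensors, proteases and factors of the response mostly fell or did not pass. In Hep3B 4 of 9 fell, 1 rose and 4 did not pass, with a median of −0.30 beside 0.07, and 21.9% of all entries fell. MBTPS1 and MBTPS2, the Golgi proteases that cut ATF6 in turn, were called in opposite directions, at 0.41 and −0.52. In Huh7 3 of 4 were lower, beside 52.0% of all genes. MBTPS2 was at −0.96 there, and RTCB, the ligase that joins spliced XBP1 mRNA, was at −0.41 beside −0.30 in Hep3B.

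Glycosylation, translocation and degradation genes outside the set had both rises and falls under the deposited scaling. Under it 21.9% of all Hep3B entries fell and 27.6% rose, and 52.0% of all Huh7 genes were lower. Of 11 glycosylation and calnexin-cycle genes in Hep3B 4 fell, 1 rose and 6 did not pass, with a median of −0.09 beside 0.07, and in Huh7 10 of 14 were lower with a median of −0.27 beside −0.19. Under median centring 8 of the 11 in Hep3B fell and 3 did not pass, and under TMM 6 fell and 1 rose. These scalings also shift all Hep3B entries down, to a median of −0.09 under median centring and 0.02 under TMM. The share of all calls that are higher goes from 55.7% to 39.2% and 49.7%, so added falls in a list include that shift. Under median centring the list medians were −0.25 for glycosylation, −0.4 for translocation and −0.13 for degradation genes. LMAN1, a cargo receptor for glycoproteins leaving the ER, was at −0.59 in Hep3B and 0.83 in Huh7. Of 15 translocation genes in Hep3B 6 fell, 2 rose and 7 did not pass, with a median of −0.24 beside 0.07 (9 falls and 1 rise under median centring), and in Huh7 10 of 14 were lower with a median of −0.21, close to the −0.19 of all genes. SEC63, a partner of the SEC61 channel, was at −0.45 in Hep3B and 0.58 in Huh7, against falls of its channel SEC61A1 in both. Of 16 degradation genes in Hep3B 6 rose, 2 fell and 8 did not pass, with a median of 0.03 beside 0.07 (6 rises and 5 falls under median centring), and in Huh7 10 of 15 were lower with a median of −0.22 beside −0.19. SVIP, an inhibitor of ER degradation, was at −0.80 in Hep3B and −0.66 in Huh7.

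**Figure D5:**
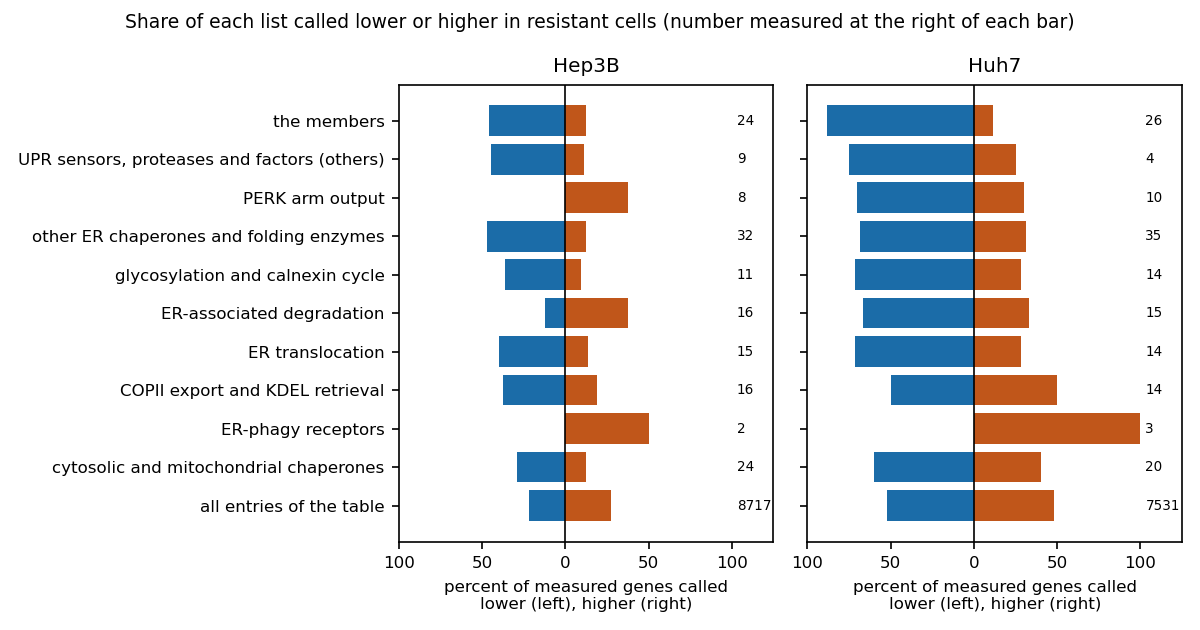
Percent of the measured genes of each list (y axis) that were called lower (bars to the left of 0) or higher (to the right) in resistant cells of each line, with the number measured at the right and all entries as the lowest bar. In Hep3B 11 of 24 members fell and 3 rose while 21.9% of all entries fell and 27.6% rose; every Huh7 gene is called, since that table is a selection.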

How the data were processed

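RNA-seq libraries from total RNA of parental and lenvatinib-resistant Hep3B and Huh7 cells were analysed, 3 per group and 12 in all. The authors deposited 1 table per line, built on GRCh37 according to the submitters' processing notes; for the aligner, counter, strand setting and annotation, no version or name is given in the sources used here. The signal values deposited for Hep3B have the form of a square root, namely 2 times the root of a library factor times the reads plus 0.375, as found from the values, and the signal values deposited for Huh7 to be reads times a library factor. Inverting both forms returned whole numbers of reads (tolerance 0.05) for 100% of values. The authors also deposited log2 fold changes and adjusted p-values, whose tool no source used here names. Of the 8718 Hep3B entries 1 names no gene and was left out; it held 0.000119% of the reads. No adjusted p-value that the authors deposited for Huh7 exceeds 0.0499, so that table is a selection, while 4982 Hep3B entries had 0.05 or more. IDs of 8564 Hep3B and 7516 Huh7 entries were found in the gene tables used.

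The main test was limma 3.58.1 in R 4.3.3 with trend and robust options on log2(scaled reads + 1), over entries that reached 1 scaled read in 3 or more libraries, two-sided, with Benjamini-Hochberg adjustment over each whole table. The difference between lines was tested as the difference of both changes over the root of their summed squared standard errors, on a t distribution with Welch-Satterthwaite degrees of freedom, adjusted over 3885 shared symbols. Since the values were not counts as deposited, edgeR 4.0.16 and DESeq2 1.42.0 were run on the recovered reads as alternatives. The scripts were tested on simulated data. Of simulated log2 changes of 0.5, 70% were recovered in Hep3B, 87% in Huh7 and 60.2% for the difference. Of the simulated calls 7.61%, 2.6% and 6.75% were false in the same order, so smaller changes can be missed. Replicates of a group differed by more than sampling noise. Same-numbered parental and resistant Hep3B libraries deviated together, with correlations of 0.136, 0.284 and 0.149 over 5531 genes. By the rule used (all over 0.1) they were treated as paired in an alternative fit, though no label states a pairing. The Huh7 numbers did not pair. Depth sets the precision of low genes such as ERO1B, EIF2AK3 and CRELD2. The members and gene lists were chosen with earlier results of these data known. All members found were described, and from each other list at most the 3 genes with the smallest adjusted p in each line and direction could be named. Promoter windows came from RefSeq on GRCh38.p14 and were matched by symbol. The rule for printed promoters named ERSE in a member called in at least 1 line; the ERSE-II promoters were added after the data were seen.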

Additional observations from a re-analysis of the deposited data

Results flagged for a closer look

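The change of 12 members differed between the lines by the test of the difference itself, given as the log2 fold change in Huh7 minus that in Hep3B. Of these, 4 were above 0: HSP90B1 at 0.75, PPIB at 0.72, EDEM3 at 0.55 and P4HB at 0.18. The other 8 were below 0. ERO1B was at −1.26, EDEM1 at −0.85, MANF at −0.54, SEL1L at −0.43, CREB3 at −0.43, SEC61A1 at −0.40, DNAJB11 at −0.25 and CALR at −0.16. Such a difference was called for 67.1% of all shared genes. The lines have separate tables with separate scaling, and only genes that had passed the authors' test are listed for Huh7, so the part of table construction and scaling in these differences cannot be told apart from that of the line.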

How the results depend on the processing

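Over single members, 357 of 406 alternative values kept direction and side of the threshold in Hep3B, 425 of 442 in Huh7 and 285 of 306 for the difference between lines. In Hep3B the members called higher were 3 in the main test and 1 under median centring and under DESeq2. Members with Huh7 below Hep3B were 8 in the main test and 5 under median centring. Leaving out 1 library gave 2 to 3 members higher and 10 to 12 lower in Hep3B, 3 higher and 21 to 23 lower in Huh7, and 4 above and 7 to 9 below for the difference. The replicate block left 3 members higher and gave 14 lower in Hep3B, and 3 higher and 23 lower in Huh7, where the numbers do not pair the libraries, with correlations of 0.051, −0.039 and 0.118. Beside the members named with the block in the report, it changed no call of a member.

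Some changes near 0 reversed. In Hep3B, CALR, which fell by 0.18 under median centring, ran from −0.05 to 0.00, and SEC61B ran from −0.11 to 0.04 with 1 library left out. CRELD2, at 34 reads, was −0.13 under median centring, −0.02 under TMM, −0.02 with a pseudocount of 5, −0.20 under DESeq2 and −0.18 in the authors' deposited table, and ran from −0.43 to 0.48 with 1 library left out. For the difference, median centring gave CALR 0.06, SDF2L1 0.09, DNAJC3 0.03, ERN1 0.12 and TXNDC5 0.13. With 1 library left out, the difference of SDF2L1 ran from −0.24 to 0.01, that of ERN1 from −0.20 to 0.06 and that of TXNDC5 from −0.26 to 0.13. The cause was not tested.

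Calls in Huh7 that ended were those of XBP1 under median centring (−0.05), TMM (−0.08), edgeR (−0.08), DESeq2 (−0.02) and limma without trend, of CANX, HERPUD1 and PPIB under median centring and DESeq2, of CANX under limma without trend and of PDIA4 under DESeq2 (−0.09). In Hep3B those of ATF6, SEL1L, SEC61A1 and MANF ended under limma without trend. The differences of CALR and P4HB ended under limma without trend, and those of CALR (−0.08) and DNAJB11 (−0.17) under TMM, a scaling added here after seeing the data. Log2 changes of low genes are understated by the pseudocount.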

Other observations

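Chaperones outside the ER were mixed. Of 24 cytosolic and mitochondrial chaperones measured in Hep3B, 7 fell, 3 rose and 14 did not pass in limma, with a median log2 fold change of −0.04 beside 0.07 for all entries. In Huh7, 12 of 20 were lower and 8 higher, with a median of −0.22 beside −0.19. Of all entries 21.9% fell and 27.6% rose in Hep3B, and 52.0% were lower in Huh7. HSPB8, a small heat shock protein of chaperone-assisted autophagy, was at −1.60 in Hep3B and −1.23 in Huh7. HSPB1, its relative HSP27, was at 0.65 in Hep3B, from 4464.2 ± 247 to 6992.2 ± 472 (SD, n = 3), and at −0.78 in Huh7, from 2989.8 ± 355 to 1728.3 ± 31.3. The mitochondrial chaperonin HSPD1 and the cytosolic HSP90AB1 were higher in Huh7, at 0.37 and 0.30, as was the ER paralog HSP90B1. HSPA1A and HSPA1B are near-identical copies and their reads could be divided between them.

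Genes of export from the ER and of KDEL retrieval, which brings chaperones back from the Golgi, gave 6 falls, 3 rises and 7 that did not pass in Hep3B, with a median of −0.09 beside 0.07, and 7 lower and 7 higher in Huh7, with a median of 0.02 beside −0.19. Of all entries 21.9% fell in Hep3B and 52.0% were lower in Huh7. KDELR3 was higher in each line, at 0.51 and 0.66, though in Hep3B its limma adjusted p was 0.056 under median centring. KDELR1 was at 0.17 in Hep3B, or 0.01 under median centring, and at −0.55 in Huh7. SEC24D, a COPII coat subunit, was at −1.01 in Hep3B. Among ER-phagy receptors, RETREG2 was higher in each line, at 0.47 (SE 0.06) in Hep3B and 0.53 (SE 0.06) in Huh7. It was 1 of 2 measured in Hep3B out of a list of 8. There the median of the list was −0.07 beside 0.07, and 27.6% of all entries rose. All 3 listed in Huh7 were higher, as were 48.0% of all genes there.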
